A study of Mus musculus with 10 samples.

Results

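The 5 control cultures of the series were described on their own, as a baseline of the inguinal adipocyte transcriptome. They were the libraries labelled Control 1 to Control 5 with the genotype Fam20c-flox, and they made up 5 of the 10 libraries of the series. No value below compares them with the other 5 libraries, which carry Adipoq-Cre. The cells came from the stromal vascular fraction of inguinal fat, the mixed non-adipocyte fraction of the tissue, of male mice aged 6 to 8 weeks, homozygous for the floxed Fam20c allele on a C57BL/6J background and lacking Cre. They were grown to confluence and differentiated in culture with IBMX, dexamethasone, insulin and rosiglitazone, then insulin and rosiglitazone, then insulin alone. The labels call the cells primary adipocytes but do not say that each culture came from separate animals, so the spread given here is that between these 5 libraries and may be partly technical. All 5 cultures shared the floxed allele and the same drugs, and no untreated or undifferentiated culture was used here as a reference.

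White adipocytes store triglyceride in a single large lipid droplet, take up fatty acids and glucose under insulin, and secrete adipokines such as adiponectin. Precursors in the stromal vascular fraction turn into adipocytes when PPARG and the C/EBP factors are switched on. In culture this is driven by a cAMP-raising agent, a glucocorticoid, insulin and a PPARG ligand. The stromal vascular fraction also holds macrophages, endothelial cells, mural cells and other non-fat cells, which may persist in the dish.

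The libraries held between 18949106 and 26237825 counts over 56748 genes, 110534070 counts in all. Levels are given as CPM (a gene's counts per 1000000 counts of the library) when libraries are compared, and as TPM (counts per kilobase of merged exons, scaled to the same total in each library) when genes are compared. Errors are SD over the 5 libraries (n = 5). Control 4 and Control 5 stood apart on the first 2 principal components of log2 CPM. Control 4 held the far end of the first, which carried 47.5% of the variance (score 24.5, against -8.93 to -4.20 in the others). Control 5 held an end of the second, which carried 21.7% (score 13.6, with Control 1 at the other end at -10.1). The third carried 19.8%, with Control 3 at its far end (score 14.4). Counts of 2 libraries differed least for Controls 1 and 2, with a chi-square of 3.50 per degree of freedom, and most for Controls 4 and 5, with 39.4. No pair therefore agreed within counting noise, and every library was kept as a sample of its own. Of the sex-linked genes, Ddx3y was at 93.9 ± 6.905 TPM and Eif2s3y at 62.9 ± 2.42 TPM, while Xist was at 0.0108 ± 0.0102 TPM.

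A total of 12344 genes reached 1 CPM in each of the 5 cultures, 21.8% of the table. Protein-coding genes made up 11688 of them, which is 53.4% of the protein-coding genes with an annotation match. Between 98.9% and 99.1% of counts fell on protein-coding genes. Long noncoding RNA genes took 0.419% ± 0.0325 of counts, with 347 of 9899 detected. The counts were spread over many genes: 50% of a library's counts lay in 511 to 574 genes and 90% in 4958 to 5032.

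Genes of lipid storage and synthesis led the nuclear part of the transcriptome. Among nuclear genes, Scd1 and Fabp4 held the highest levels per length. Of the genes in mitochondrial DNA, mt-Co1 (31274 ± 10183 TPM) stood above Scd1 in Controls 1, 3 and 4. The means of mt-Nd1 (23312 TPM) and mt-Nd2 (15372 TPM) also lay above that of Fabp4. Scd1 encodes stearoyl-CoA desaturase, which makes monounsaturated fatty acids. Its level was 31832, 30383, 27337, 38646 and 32701 TPM in Controls 1 to 5, a mean of 32179.7 ± 4149.8 TPM. It was highest in Control 4 and lowest in Control 3. Fabp4, the adipocyte fatty acid binding protein, was at 15316, 15070.4, 14918, 14689 and 16231 TPM, within a narrow range (15245 ± 596 TPM). Every Scd1 value lay above every Fabp4 value, and every Fabp4 value above every value of Gsn, the third gene. The order of Scd1 and Fabp4 rested on the length given to Fabp4. Its merged exons cover the whole locus of 4489 bases, whereas its principal coding transcript has 896 bases. With that transcript length Fabp4 was at 50751 TPM and stood above Scd1 at 21661 TPM. On the CPM scale, which uses no length, Scd1 was at 48154 ± 5878 CPM and Fabp4 at 20944 ± 593 CPM.

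**Figure D1:**
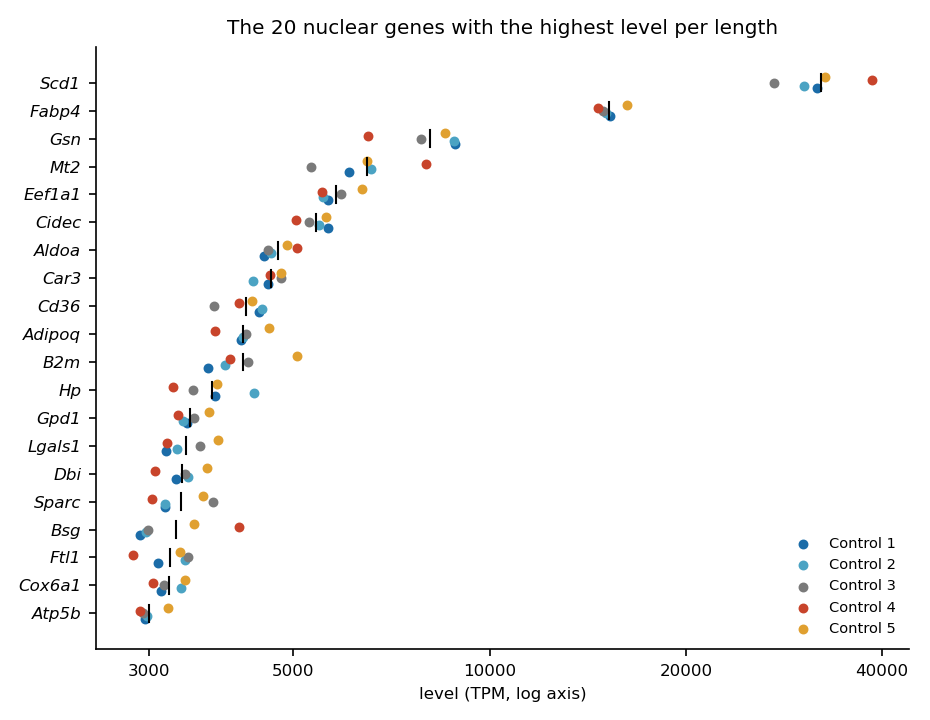
Levels of the 20 nuclear genes with the highest mean TPM (horizontal log axis, TPM on merged exon length); each coloured point is 1 control library and the black bar the mean of 5. Scd1 (27337 to 38646 TPM) and Fabp4 (14689 to 16231 TPM) do not overlap with each other or with the genes below them, while 17 of the 19 neighbouring pairs in the order have overlapping ranges.

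The other 18 genes of that list lay between 3003 and 8114 TPM. They included further adipocyte genes. Cidec, which enlarges lipid droplets, was at 5418 ± 247 TPM. Car3, a carbonic anhydrase abundant in fat, was at 4617 ± 185 TPM. Cd36, the fatty acid translocase, stood at 4227 ± 283 TPM and Adipoq, which encodes adiponectin, at 4191 ± 285 TPM. Gpd1, which makes glycerol 3-phosphate for triglyceride, was at 3474 ± 149.6 TPM. Gsn, which encodes the actin-severing protein gelsolin, was at 8114 ± 977 TPM, with its lowest value in Control 4 (6519.6 TPM, others 7854 to 8838 TPM). Genes used by most cells were also there, such as Eef1a1 (translation elongation) at 5808 ± 347 TPM, B2m (the light chain of MHC class I) at 4189.6 ± 529 TPM, and Atp5b (ATP synthase) at 3003 ± 119 TPM. Mt2, a metallothionein, had 6493 ± 966 TPM, although 45.8% of its 50-base transcript windows also stand in the overlapping gene Gm45774. Likewise 58.4% of the windows of Ftl1 (ferritin light chain) and 40.4% of those of Eef1a1 have an exact copy in another annotated gene, so their counts depend on how shared reads were treated. The 20 genes together took 12.04% ± 0.447 of counts. Ranked on principal coding transcripts instead, 13 of the 20 stayed, with Lpl, Fth1, Fabp5, Gapdh, Mt1, Pnpla2 and Eif4g2 coming in.

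The 10 genes with the most counts took 12.6% ± 1.05 of each library, between 11.2% in Control 5 and 14.1% in Control 4, and 4 of them were encoded in mitochondrial DNA. The leading one of the 4, mt-Co1, a core subunit of cytochrome c oxidase, was at 15973, 13965, 17044, 20195 and 7009 CPM. It was lowest in Control 5 by a wide margin. The mitochondrial genome as a whole took 4.31%, 3.84%, 4.64%, 5.09% and 2.09% of counts, and all 10 mitochondrial protein-coding genes at a mean of 10 CPM or more were lowest in Control 5, which was the lowest library for 9.79% of all genes at that level. Levels of these genes were uneven. mt-Nd1, mt-Cytb and mt-Nd2 had 6847, 5004 and 4897 CPM, while mt-Co2, mt-Co3 and mt-Atp6 had 16.3, 21.8 and 13.7 CPM and mt-Nd3 and mt-Nd4l had 2.49 and 1.84 CPM. These 5 low genes share between 97.99% and 100% of their 50-base windows with annotated pseudogene copies, against 0%, 0% and 8.19% for mt-Nd1, mt-Cytb and mt-Nd2. However, mt-Co1 and mt-Nd4 share 51.1% and 62.2% of theirs and were at 14837 and 2512 CPM. Copies of the 5 low genes were also low, for example Gm28661, a copy of mt-Co2, at 16.1 CPM. mt-Nd6 and mt-Atp8 were also low (17.7 and 3.67 CPM) with 0% of windows shared. Whether reads with several matches were discarded is not given in the sources used here, so the mitochondrial share is the share as counted.

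Marker lists were summed to see which cell types the cultures held. Lists were short sets of textbook markers, chosen with earlier results of these data known, with the most restricted ones termed defining. The adipocyte list summed to 81893, 80547, 75899, 85848 and 84931 TPM, which is 8.18% of all TPM. Of its 25 genes 24 reached 1 CPM in every culture, including all 6 defining ones (Fabp4, Cidec, Adipoq, Lpl, Plin1 and Pparg). The libraries differed by 4.83% CV, and none stood outside the rest. The median level of the list's genes was 693 TPM, beside 17.8 TPM for all genes detected in the 5 cultures. Lpl, the lipoprotein lipase, was at 2709.9 ± 167 TPM, and Plin1, the perilipin coating the droplet, at 805 ± 33.9 TPM. Pparg, the master regulator of adipogenesis, was at 249, 248, 239, 255 and 262 TPM, with a CV of 1.86% in CPM. The exception in the list was Lep, which encodes leptin, the hormone that signals fat stores. It was at 0.568, 0.557, 1.54, 1.05 and 1.46 TPM, the lowest level in the list.

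**Figure D2:**
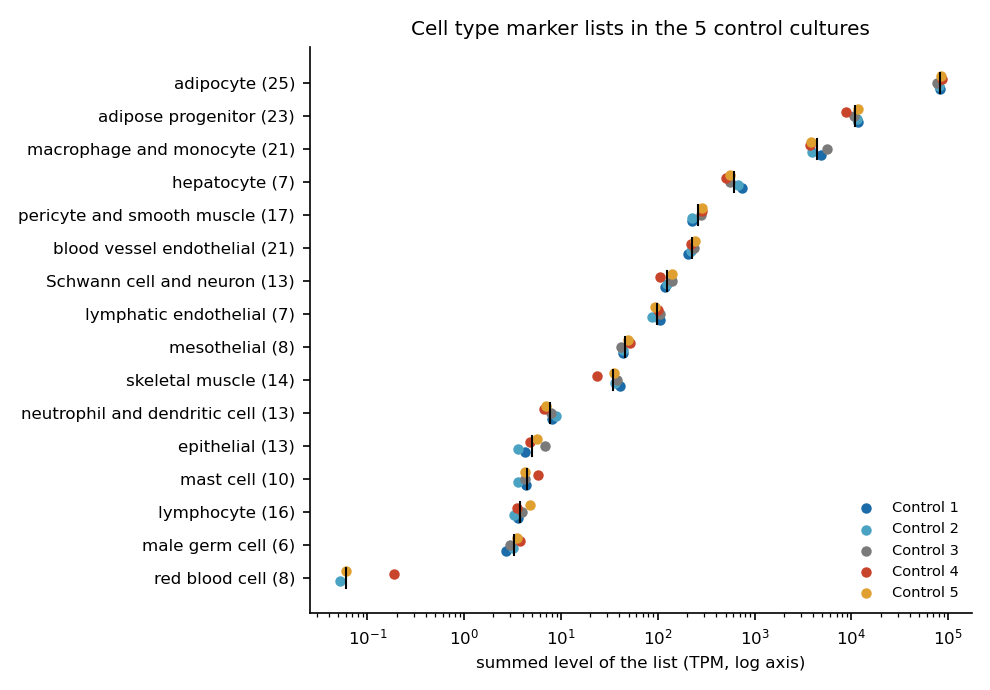
Summed level of 16 cell type marker lists (horizontal log axis, TPM; number of genes in brackets); each point is 1 control library and the black bar the mean of 5. The adipocyte list (75899 to 85848 TPM) lies above the progenitor list (8785 to 11702 TPM) and the macrophage list (3714 to 5605 TPM) in every library; red blood cell sums of 0, in Controls 1 and 3, cannot be drawn on a log axis.

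Adipose progenitor markers came second, at 10826 ± 1224 TPM, but 74.9% of that sum was Gsn, which adipocytes also express. Without Gsn the sum was 2712 ± 319 TPM. Of the 6 defining markers 4 were detected in all cultures. Ly6a, the stem cell antigen Sca-1, was at 1408, 1393, 1359, 1041 and 1749 TPM, lowest in Control 4 and highest in Control 5. Ly6a made most of the 1500 ± 258 TPM that the 6 defining markers summed to. It was also a large part of the sum without Gsn. Pdgfra, the receptor that marks fibroblast-like precursors, was at 73.1 ± 6.15 TPM, Cd55 at 25.5 ± 3.497 TPM and Cd34 at 10.8 ± 2.33 TPM. Pi16 and Dpp4, markers of an interstitial progenitor state, averaged 0.497 ± 0.115 TPM and 0.427 ± 0.135 TPM and did not reach 1 CPM in every culture. Dcn, the matrix proteoglycan decorin, was at 469 ± 27.7 TPM. In bulk RNA, few cells of a type and little RNA per cell cannot be told apart, here and in the lists that follow.

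Macrophage and monocyte markers were the third group, at 4789.9, 3901, 5605, 3714 and 3815 TPM, highest in Control 3. Lyz2, a lysozyme of macrophages, made 63.7% of the sum, with 2783 ± 555 TPM. Without it the list held 1583 ± 280.03 TPM. All 5 defining markers were detected: Cd68 at 213 ± 23.5 TPM, Adgre1, which encodes F4/80, at 86.6 ± 14.02 TPM, Csf1r at 20.3 ± 2.52 TPM, Itgam at 5.21 ± 0.991 TPM (with 66.3% of its windows shared with another gene) and Ptprc, the pan-leukocyte CD45, at 1.34 ± 0.112 TPM. Complement C1qb was at 378, 335, 450.03, 248 and 336 TPM. Of the 15 list genes at a mean of 10 CPM or more, 13 were highest in Control 3, the highest library for 21.9% of all genes at that level, and 10 lowest in Control 4, the lowest for 45.4%. Ccr2, the receptor of inflammatory monocytes, had 0 counts in all 5 libraries. Across them, 3 counts correspond to 0.0271 CPM, the upper limit that a count of 0 allows, for counting error only. The adipocyte sum exceeded the macrophage sum by 13.5 to 23.1 times over the 5 libraries. That ratio depends on the make-up of the lists, since Scd1 made 39.3% of the adipocyte sum and Lyz2 63.7% of the other. Without these genes the means were 49644 and 1583 TPM, and for defining markers alone 28620 and 326 TPM.

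Vascular, mural and nerve markers were present at low levels. Blood endothelial genes summed to 224 ± 15.95 TPM, and 20 of 21 were detected, with Cdh5, the junction protein VE-cadherin, at 41.6 ± 4.21 TPM and Pecam1 at 22.2 ± 2.39 TPM. Kdr, the main VEGF receptor, was at 2.88 ± 0.307 TPM. Pericyte and smooth muscle genes summed to 259.5 ± 29.6 TPM, and 12 of 17 were detected. Mcam led them with 26.2% of the sum. Of the 5 defining markers, Acta2, Cspg4, Notch3 and Myh11 were detected in every culture. The most variable detected member at 10 CPM or more was Acta2, smooth muscle actin, at 29.01, 30.5, 55.9, 36.6 and 46.4 TPM. The remaining defining gene, the pericyte marker Rgs5, was at 0.508 ± 0.1399 TPM. Schwann cell and neuron genes came to 125 ± 15.2 TPM, of which Ngfr, a receptor that stromal cells also express, made 49.4% (63.5 ± 4.47 TPM without it), with Sox10, a factor of the glial lineage, at 4.25 TPM and the neuronal marker Rbfox3 at 0.0607 ± 0.05897 TPM. The lymphatic list (98.2 ± 8.18 TPM) was led by Pdpn (59.1 TPM), which stromal cells also make. Its defining gene Lyve1, which some macrophages also carry, was at 49.2, 39.3, 40.3, 14.96 and 25.5 TPM, and Prox1, the lymphatic master regulator, at 0.282 ± 0.0707 TPM.

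Lists for mast cells, neutrophils and dendritic cells, lymphocytes, epithelium, male germ cells and red blood cells summed to between 0.0602 and 7.71 TPM. Kit, a defining mast cell marker, made 67.2% of its list's sum and Zbtb46 58.2% of that for neutrophils and dendritic cells. Il1rl1 made 42.6% of the lymphocyte sum and Krt10 90.7% of the epithelial sum. Each was the 1 member of its list detected in every culture. Among defining markers with 0 counts in all libraries were the T cell gene Cd3g, the natural killer gene Ncr1, the neutrophil gene S100a9, the dendritic precursor gene Flt3, the epithelial genes Epcam and Krt5, and the muscle stem cell gene Pax7. The red blood cell genes Hba-a1 and Hba-a2 share 72.3% and 89.3% of their 50-base windows with each other, so their counts depend on how shared reads were treated. Mesothelial and liver lists, at 45.8 ± 4.44 TPM and 606 ± 94.2 TPM, each rested on 1 gene. Krt19 made 96.8% of the mesothelial sum while the defining genes Msln and Upk3b were at 0.0301 and 0.0493 TPM. Cyp2e1, a cytochrome P450 that adipocytes also express, made 99.4% of the liver sum, while albumin (Alb) was at 0.705 ± 0.2101 TPM and Ttr at 0 counts. Summed levels kept the order of their first 4 lists, adipocyte, progenitor, macrophage and liver, under 3 other length rules, including none. The skeletal muscle list (34.6 ± 6.45 TPM) came mainly from Acta1 and Myl1, with Ckm and Myh4 at 0.129 TPM and 0.0353 TPM.

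Of all 56748 genes, 31125 (54.8%) had 0 counts in every control library, among them 5608 protein-coding genes, 25.6% of that class. Chemosensory families were nearly all among them: 1070 of 1106 olfactory receptor genes, 336 of 349 vomeronasal receptor genes and 33 of 38 taste receptor genes had no counts at all. Among olfactory receptors 1 gene, Olfr1033, reached 1 CPM in every culture (8.52 TPM). Defensins were at 0 in 68 of 70 and keratins in 32 of 53 genes. By contrast 79 of 83 cytosolic ribosomal protein genes and 37 of 39 proteasome subunits were detected. These families were grouped by symbol among the genes annotated as protein-coding.

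Transcription factors of adipogenesis were expressed in every culture, with 18 of 19 list genes detected. Cebpa led with 643 ± 46.9 TPM, followed by the lipogenic nuclear protein Thrsp at 356 ± 16.1 TPM, Srebf1 at 268 ± 12.9 TPM and Pparg at 251 ± 8.55 TPM. Cebpb, an early factor, was at 72.2 ± 4.35 TPM and Cebpd, its early partner, at 16.7 ± 2.11 TPM. Klf5 was lowest, at 0.665 ± 0.2097 TPM. The sum, 2447 ± 74.8 TPM, varied by 3.06% CV between cultures.

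All 20 genes of fatty acid and triglyceride synthesis were detected, at 46157 ± 4636 TPM in sum, and Scd1 alone made 69.7% of it. Agpat2 and Gpd1, which act in glycerolipid assembly, were at 2971 ± 204 TPM and 3474 ± 149.6 TPM. Fasn, the fatty acid synthase, was at 494, 461, 368, 466 and 426 TPM. Acly, which makes cytosolic acetyl-CoA from citrate, was at 312, 283, 285, 438 and 339 TPM. Fasn was lowest in Control 3, whereas Acly was highest in Control 4 and lowest in Control 2. Elovl6 (16.7 ± 1.37 TPM) and Mogat1 (8.07 ± 1.16 TPM) were the lowest members.

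Droplet proteins and lipases were detected in 18 of 20 genes, for a sum of 18055 ± 783 TPM. After Cidec came Pnpla2, the first lipase of triglyceride breakdown, at 2852 ± 208 TPM, its inhibitor G0s2 at 2452 ± 114 TPM, and Plin2 at 1738 ± 76.1 TPM. Fitm1 had 0 counts. Targets of PPARG, which rosiglitazone activates, were all detected (19 of 19), at 37309.5 ± 1427 TPM, or 22065 TPM without Fabp4 and 71056 TPM on principal coding transcripts, with Fabp3 lowest at 7.22 ± 2.19 TPM. Glucocorticoid-responsive genes were detected in 19 of 20, at 12716 ± 1366 TPM, of which Mt2 made 51.1% (6223 TPM without it). Fkbp5, a classical dexamethasone-responsive gene, was at 182 ± 20.9 TPM, and Tat, a liver target, at 0.0126 ± 0.0282 TPM.

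Secreted adipocyte factors summed to 16039 ± 649 TPM and 16 of 20 were detected. Below Adipoq and Lpl stood Rbp4, the retinol carrier, at 1918 ± 287 TPM, resistin (Retn) at 1405 ± 123 TPM and complement C3 at 1249 ± 89.8 TPM. Adipsin (Cfd) was at 623, 801, 676, 609.6 and 757 TPM. Apelin (Apln) was at 31.2, 31.7, 44.02, 86.4 and 52.5 TPM, highest in Control 4 and next highest in Control 5. At the other end, Itln1 had 0 counts, and Serpina12, which encodes vaspin, was at 0.00938 ± 0.02098 TPM.

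Brown and beige markers were mixed. Of 19 genes, with a sum of 2832 ± 119.7 TPM, 14 were detected, with Cox7a1 at 835 ± 44.6 TPM, the elongase Elovl3 at 731 ± 82.6 TPM and Cox8b at 541 ± 46.6 TPM. Ucp1, the uncoupling protein of heat-producing fat, was at 22.96, 24.4, 26.6, 48.6 and 36.4 TPM, above the 17.8 TPM median of detected genes in every culture and highest in Controls 4 and 5. Cidea was at 139, 161, 149, 249 and 186 TPM and was highest in the same 2 cultures. Prdm16, a brown fat regulator, was at 4.66 ± 0.424 TPM. Zic1, a marker of classical brown fat, was at 0.0391 ± 0.0312 TPM, and Ckmt1 had 0 counts.

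Matrix genes were abundant. Collagens summed to 7406 ± 363 TPM with 19 of 30 detected. The basement membrane chain Col4a1 led with 1337, 1349.5, 1329, 1405 and 1491 TPM, and Col6a1, Col3a1 and Col1a1 followed with 989 ± 69.96 TPM, 881 ± 130.03 TPM and 704 ± 68.6 TPM. The cartilage collagen Col2a1 had 0 counts. All 24 matrix glycoproteins and proteases were detected (8425 ± 662 TPM), led by Sparc, a collagen-binding glycoprotein, at 3358 ± 319.6 TPM and the collagen cross-linking enzyme Lox at 812 ± 130.1 TPM. Of the 22 at 10 CPM or more, 14 were lowest in Control 2, the lowest library for 10.4% of all genes at that level. Chemokines and cytokines were low, at 481 ± 73 TPM in sum, with the macrophage growth factor Csf1 at 134 ± 17.1 TPM, Il6 at 0.973 ± 0.441 TPM, Tnf at 0.612 ± 0.523 TPM and Il1b at 0 counts.

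Proliferation genes (93.3 ± 5.42 TPM, 15 of 18 detected) were low apart from Pcna (51.2 ± 5.34 TPM), and Mki67, the Ki-67 antigen, was at 1.07, 0.52, 0.543, 1.83 and 0.846 TPM. Stress-responsive genes, 19 of 20 detected, summed to 2544 ± 72.3 TPM with a CV of 2.84%. Hmox1, heme oxygenase, was at 1037 ± 50.7 TPM and Atf4 at 449 ± 23.5 TPM. All 22 cholesterol synthesis genes were detected (3040.4 ± 141 TPM), with Insig1, a brake on sterol synthesis, highest (1078 ± 67.4 TPM). In insulin signalling 20 of 21 genes were detected, for a sum of 1338 ± 104 TPM. Slc2a4, the insulin-regulated transporter GLUT4, was at 278 ± 13.9 TPM. The insulin receptor Insr was at 39.03, 39.5, 26.9, 38.99 and 38.2 TPM, lowest in Control 3, as were 11 of the 19 genes of the list at a mean of 10 CPM or more (22.5% of all genes). Igf2 was at 0.00871 ± 0.0195 TPM. However, 62.1% of its 50-base windows are shared, mostly with Gm49394 (0 CPM), so its counts depend on how shared reads were treated. Fam20c, a secretory pathway kinase and the floxed gene of the line, was at 4.44, 5.18, 5.81, 4.39 and 5.78 TPM, which is 10.3 ± 1.44 CPM, below the median level of detected genes.

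Hox genes give cells a record of their position along the body axis. Of 39 genes 21 were detected, and the Hoxc cluster held the highest levels. Hoxc10 was at 55.8, 54.3, 51.9, 45.9 and 52.7 TPM and Hoxc8 at 49.1, 49.8, 46.5, 39.3 and 46.2 TPM, followed by Hoxc6 at 25.4 ± 1.84 TPM. The annotated exons of Hoxc10 and Hoxc5 overlap. By position in the cluster, 4 of 8 genes numbered 1 to 3 were detected, 12 of 15 numbered 4 to 8, 5 of 7 numbered 9 and 10, and 0 of 9 numbered 11 to 13. The 5 genes with 0 counts in all libraries were Hoxb1, Hoxd1, Hoxd11, Hoxd12 and Hoxd13. In a list of 20 depot and position genes, 12 of them detected (193 ± 9.08 TPM), Tbx15, a factor of subcutaneous fat, was at 49.8 ± 4.62 TPM and Shox2 at 24.5 ± 1.09 TPM, whereas Wt1, a marker of visceral fat, was at 0.216 ± 0.1498 TPM and Gata4 and Nkx2-5 had 0 counts. Gata6, another GATA factor of the list, was at 7.93 ± 0.572 TPM. The Hox sum was 263, 257, 262, 226 and 255 TPM, lowest in Control 4.

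**Figure D3:**
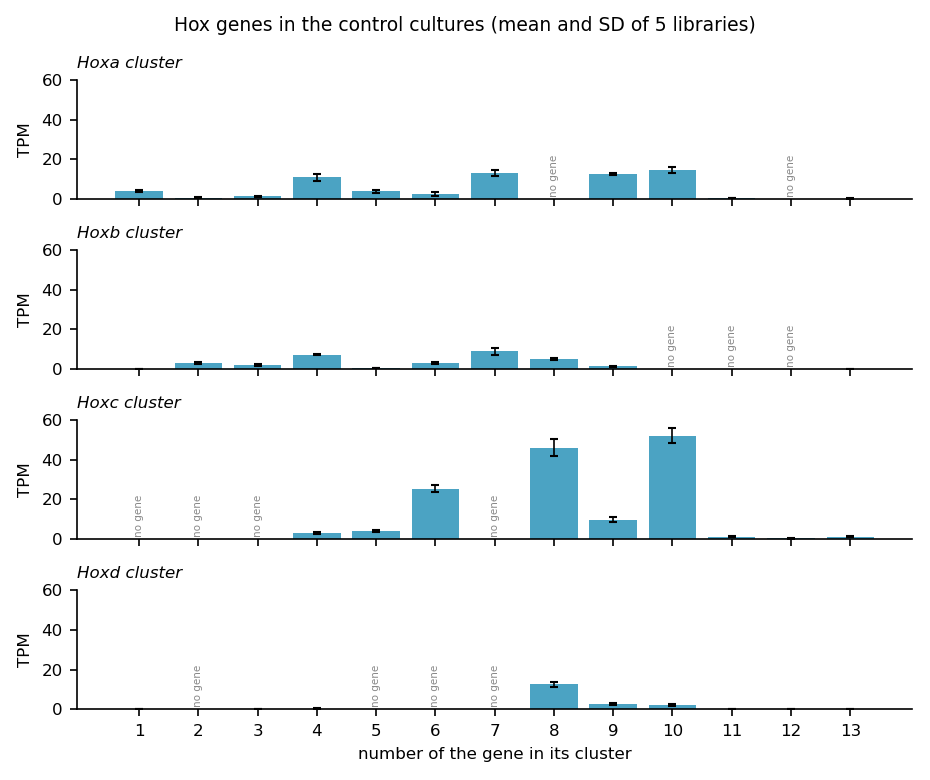
Mean level of each Hox gene by its number in the cluster (vertical axis TPM, bars start at 0, error bars SD of 5 libraries), one panel per cluster; "no gene" marks numbers that do not exist. Hoxc10 (52.1 TPM) and Hoxc8 (46.2 TPM) stand highest, and the highest gene numbered 11 to 13 is Hoxc13 (1.17 TPM).

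The 8864 genes with a mean of 10 CPM or more had a median CV of 7.02% between the cultures, where counting error alone gives a median of 3.31%. The middle 90% of genes lay between 2.79% and 17.98%. The common biological coefficient of variation estimated by edgeR was 9.69%, and 7.06% without Control 4. Genes with a CV over 25% numbered 179, but 68 without Control 4 and 33 without both Control 4 and Control 5. The steadiest 5 genes had CVs of 0.613% to 0.822%. They were Mapk14, the stress kinase p38 alpha, Wdr45b, an autophagy protein, Nae1, a subunit of the NEDD8-activating enzyme, Miga2, a mitochondrial fusion factor, and Ccng1, cyclin G1. Mapk14 was at 115, 116, 115, 116 and 115 CPM. These 5 CVs lie below the counting error of the same genes, 1.24% to 3.76%, and the genes were picked as the steadiest of 8864.

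**Figure D4:**
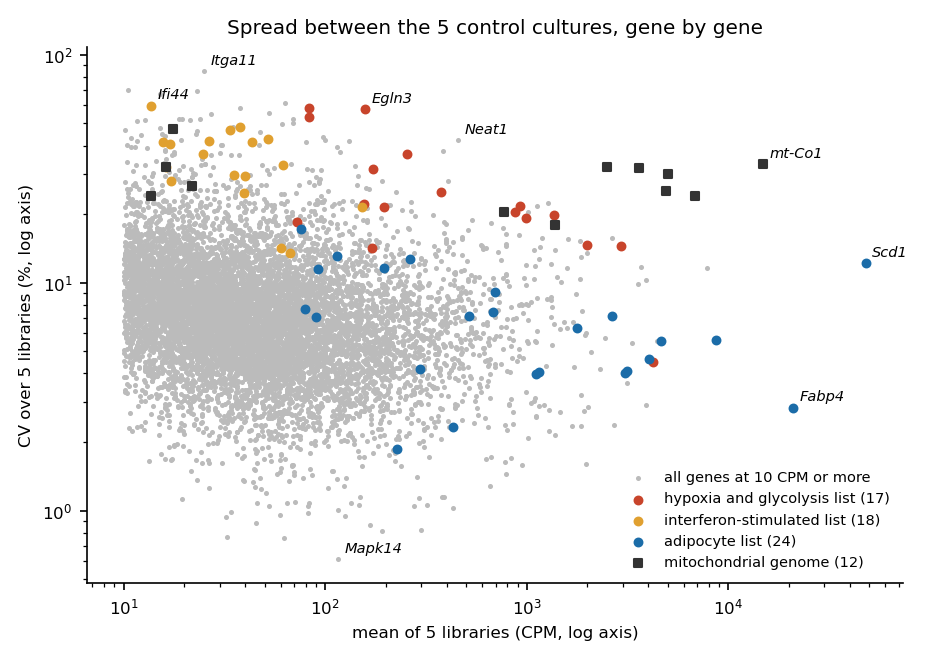
CV over the 5 control libraries (vertical log axis, percent) against mean CPM (horizontal log axis) for 8864 genes; coloured points are genes of 3 lists and black squares the mitochondrial genome. Median CVs are 6.71% for the adipocyte list, 21.4% for the hypoxia and glycolysis list and 34.7% for the interferon-stimulated list; without Control 4 the first 2 are 3.74% and 8.50%, and without Control 5 the third is 16.9%.

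The 10 genes with the largest CV were Itga11, Gm49759, Fndc1, Reep1, Ak4, Ifi44, Ffar4, Ndrg1, Egln3 and Bhlhe40. They were picked for their spread, so its size is a description. In 9 of them Control 4 held the highest value, the exception being Ifi44. Control 4 was the highest library for 20.7% of all 8864 genes. Itga11, an integrin subunit of collagen-binding stromal cells, was at 12.2, 10.6, 19.4, 62.1 and 20.8 CPM. Ffar4, the fatty acid receptor GPR120, was at 24.9, 27.5, 26.1, 76.6 and 33.4 CPM. Gm49759 overlaps the exons of Pkm, with 16.2% of its 50-base windows shared, so part of its counts may come from Pkm.

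Genes of the hypoxia and glycolysis list with a mean of 10 CPM or more were higher in Control 4 than in every other control. Cells short of oxygen stabilise HIF factors, which raise glycolytic enzymes, glucose transport and prolyl hydroxylases. Their sum was 13219.7, 12889, 13182, 17872 and 14840 TPM. All 17 members with a mean of 10 CPM or more had their highest CPM in Control 4, which was the highest library for 20.7% of all genes at that level. Their median difference from the mean of the other 4 libraries was 0.60 on the log2 scale, against -0.07 for all genes. The members were chosen with earlier results of these data known, so the count is a description. Members Egln3 and Ndrg1 are also among the 10 genes picked for the largest CV. Egln3, the prolyl hydroxylase PHD3, was at 117, 106, 108, 320.4 and 141 CPM. Slc2a1, which encodes the glucose transporter GLUT1, was at 56.9, 60.3, 62.1, 161 and 74.8 CPM. Vegfa, the vessel growth factor, was at 227, 214, 229.9, 419 and 184 CPM, lowest in Control 5. The glycolytic enzyme Aldoa moved least (4005 to 4510.2 CPM, CV 4.496%). Between Controls 1, 2, 3 and 5, the median CV of the list was 8.50%, against 21.4% over all 5.

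Other genes were lower in Control 4. It was the lowest library for 45.4% of the 8864 genes, mostly by small amounts, since 5 genes lay more than 1 log2 unit below the mean of the others and 35 above it. Lyve1 lay furthest below (13.4 CPM, others 22.3 to 43.7 CPM), followed by Derl3, an endoplasmic reticulum degradation factor (8.52 CPM, others 15.9 to 23.7 CPM), and by the interferon genes Ifi44, Isg15 and Igtp. The difference also moved with transcript length. Genes with a longest transcript up to 1000 bases had a median of -0.15 in Control 4 and those over 8000 bases a median of 0.15, on the log2 scale. In Control 3 the same bins had 0.09 and -0.26. The part of transcript length in the values of single genes was not tested.

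Genes of the interferon-stimulated list with a mean of 10 CPM or more were highest in Control 5 and lowest in Control 4. Interferons, released on viral or nucleic acid sensing, act through cell surface receptors to switch on antiviral genes. The list summed to 1736, 1865, 1769.9, 1366 and 2869.7 TPM. All 18 members with a mean of 10 CPM or more were highest in Control 5 and all 18 lowest in Control 4, where Control 5 was highest for 21.2% of all genes and Control 4 lowest for 45.4%. This list too was chosen with earlier results of these data known, so the counts are a description. The median difference from the mean of the other 4 libraries was 0.91 in Control 5 and -0.71 in Control 4 (log2). In Controls 1, 2 and 3 it was -0.09, -0.04 and -0.08. Isg15, a ubiquitin-like antiviral protein, was at 32.9, 35.6, 32.6, 19.6 and 68.6 CPM. Ifit3 was at 26.9, 29.2, 31.1, 19.996 and 60.7 CPM and Irf7, a factor that amplifies the response, at 43.3, 46.6, 46.4, 33.4 and 90.7 CPM. Ifit3 shares 51.2% of its windows with Ifit3b, so its counts may include reads of that copy. Ifi27l2a was the most abundant member, at 1073 ± 246 TPM. Without Lyz2, the macrophage sum was 1706, 1467, 1989, 1244 and 1508 TPM, lowest in Control 4 as well and highest in Control 3, and its part in the interferon values was not tested.

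**Figure D5:**
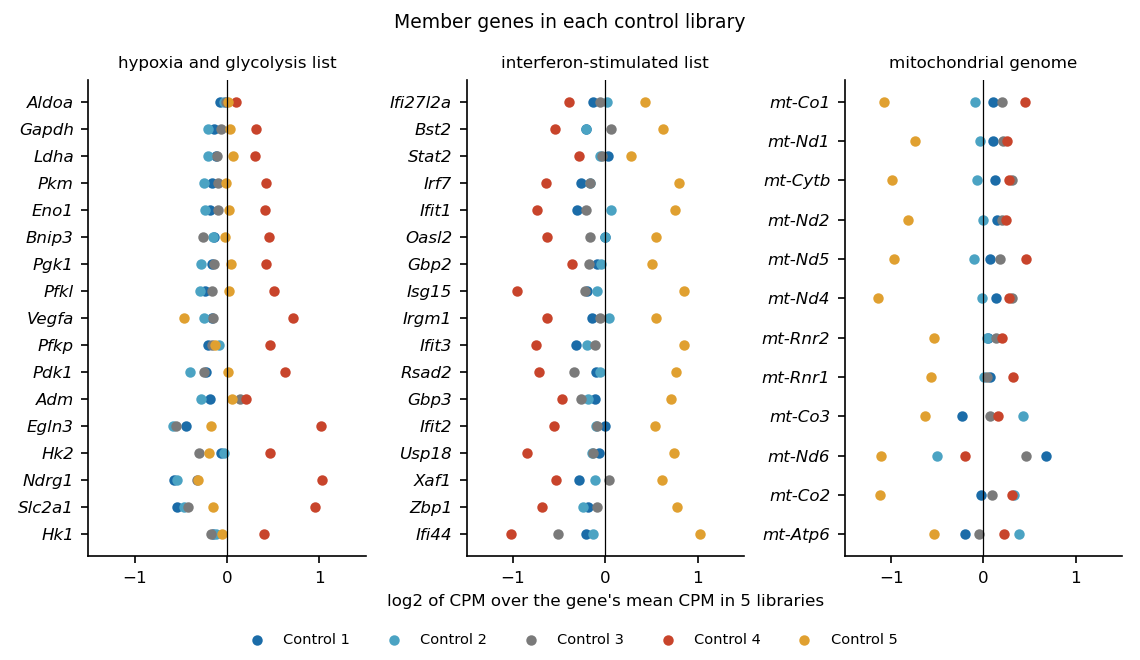
CPM of each gene in each control library over the gene's mean of 5 libraries (horizontal axis, log2; genes with a mean of 10 CPM or more, ordered by mean CPM) for the hypoxia and glycolysis list, the interferon-stimulated list and the mitochondrial genome. Control 4 is highest for all 17 hypoxia genes, Control 5 is highest and Control 4 lowest for the 17 interferon genes drawn (of 18, with 1 not shown), and Control 5 is lowest for the 12 mitochondrial genes.

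Promoter windows of the lists that moved together were searched for the sequence that the factors of these responses are known to bind. The lists were made of known genes of these responses, so an excess over all symbols may follow from that choice alone. The part of these sequences in the differences between libraries was not tested. RefSeq windows (build GRCm38.p6, 250 bases before to 50 after the transcription start) were matched by symbol. Of 22 interferon list genes 15 had a window, and 10 of those held GAAANNGAAA on either strand, the core of the interferon-stimulated response element, against 3.99% of the 27025 symbols with windows. Of 19 hypoxia and glycolysis genes 18 had a window, and 13 of those held ACGTG on either strand, the core of the hypoxia response element, against 21.8% of all symbols. Some of these genes have several windows. Counted by window, 14 of 27 held ACGTG against 19.6% of all 32851 windows, and 10 of 17 held GAAANNGAAA against 3.44%. Members without a match included Ifi44 and Irf7 in the first list and Eno1, Pfkl and Pdk1 in the second. The 3 matches in Isg15 overlap each other. Shown in capitals are these matches, first GAAANNGAAA or its reverse complement in Isg15 (chr4:156200769-156201068, minus strand) and Ifit3 (chr19:34583279-34583578, plus strand), then ACGTG in Egln3 (chr12:54203825-54204124, minus strand) and Slc2a1 (chr4:119108495-119108794, plus strand). A match is a description of the letters and not a sign that a factor was bound. The windows printed below are examples that hold a match. In its highest library Ifi44 stood further above the mean of the others (2.73 times) than Isg15 (2.27 times) or Ifit3 (2.26 times). Its window held 0 matches and is not printed.
Isg15: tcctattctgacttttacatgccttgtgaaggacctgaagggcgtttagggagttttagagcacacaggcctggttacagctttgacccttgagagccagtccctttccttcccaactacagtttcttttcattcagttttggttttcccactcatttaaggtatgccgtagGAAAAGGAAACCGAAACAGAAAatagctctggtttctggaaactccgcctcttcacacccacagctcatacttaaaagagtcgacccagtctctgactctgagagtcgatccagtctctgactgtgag
Ifit3: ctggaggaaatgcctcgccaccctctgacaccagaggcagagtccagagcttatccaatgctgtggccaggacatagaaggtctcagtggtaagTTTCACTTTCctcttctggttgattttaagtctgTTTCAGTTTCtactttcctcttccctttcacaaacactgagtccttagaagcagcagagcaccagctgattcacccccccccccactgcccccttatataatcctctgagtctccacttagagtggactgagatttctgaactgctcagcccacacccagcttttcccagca
Egln3: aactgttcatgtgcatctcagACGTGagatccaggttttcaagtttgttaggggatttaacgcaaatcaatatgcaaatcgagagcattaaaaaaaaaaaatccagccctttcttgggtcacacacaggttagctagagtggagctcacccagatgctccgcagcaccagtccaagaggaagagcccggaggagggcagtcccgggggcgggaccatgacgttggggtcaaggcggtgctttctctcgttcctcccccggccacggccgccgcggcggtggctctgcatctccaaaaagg
Slc2a1: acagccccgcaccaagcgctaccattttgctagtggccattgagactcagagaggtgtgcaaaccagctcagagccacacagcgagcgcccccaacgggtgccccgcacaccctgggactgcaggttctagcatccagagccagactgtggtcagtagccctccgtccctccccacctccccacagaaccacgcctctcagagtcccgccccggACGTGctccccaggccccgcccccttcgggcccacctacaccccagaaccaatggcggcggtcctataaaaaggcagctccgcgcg

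Some noncoding RNAs were also low in Control 5. Neat1, the scaffold of nuclear paraspeckles, was at 597, 449, 548, 569 and 125 CPM, and Malat1, a nuclear speckle RNA, at 148, 88.8, 90.4, 132 and 40.3 CPM. Meg3, an imprinted noncoding RNA, was at 24.4, 12.01, 25.7, 29.6 and 5.57 CPM. The antisense gene Dnm3os was at 12.9, 9.91, 12.3, 15.1 and 3.93 CPM. Each of the 4 was lowest in Control 5, and all but Malat1 were named for being low there. Of the 61 long noncoding RNAs with a mean of 10 CPM or more, Control 5 was lowest in 13 and highest in 12, against 9.79% and 21.2% of all genes at that level. In all, 12 genes lay more than 1 log2 unit above the mean of the others in Control 5 and 23 below it. The mitochondrial share, these 4 RNAs and the interferon genes moved in the same library, and the part of one in another was not tested.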

How the data were processed

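RNA-seq was carried out by the authors on cultured primary adipocytes. According to the study's methods, cDNA was made with the SMARTer low-input kit and Nextera XT, sequenced in paired-end mode with 50 cycles, aligned with STAR to GRCm38.p6 and counted per gene with featureCounts; the submitters' processing notes name mm10. Strand setting and treatment of multi-mapped reads are not given in the sources used here. The deposited table holds raw counts per gene, not normalized. No columns outside the series' labels were present (0), and the 5 Cre libraries entered no calculation.

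CPM and TPM were computed here from the deposited counts. Of 56748 identifiers 52073 matched GENCODE M21 after the version suffix was dropped, and 35 carried the same version, with nearly all others later, so the counting may have used a later annotation than the lengths and coordinates given here. The unmatched 4675 genes (0.194% to 0.255% of counts) have no TPM. Length was that of merged exons. Depth of 18949106 to 26237825 counts gives a limit of 0.114 to 0.158 CPM per library for a count of 0 (3 counts). Spread was computed with numpy 2.4.6 and pandas 2.3.3 (Python 3.11.15), dispersion and TMM factors with edgeR 4.0.16, size factors with DESeq2 1.42.0 (R 4.3.3). Principal components used log2 CPM with a prior count of 2 over genes at 1 CPM in every library. Library pairs were compared by chi-square over genes with 20 counts or more in the pair. Shared 50-base windows were counted against GENCODE M21 transcripts on both strands. The scripts were tested on simulated data.

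The 5 control libraries were set by the genotype label and no groups were compared, so no test between groups was made. Genes named are the 20 highest levels outside mitochondrial DNA, defining markers or the highest and lowest members of each list, members at 0, the 10 largest and 5 smallest CVs, up to 5 genes each way in libraries that stood apart, and Fam20c; Malat1, single mitochondrial genes, gene families by symbol and some list members such as C1qb, Fasn, Acly, Vegfa, Irf7, Insr and Cfd were picked with their values in view. The members and the 35 lists (583 genes) were chosen with earlier results of these data known. Alternatives were other filters, scalings, lengths, prior counts, list make-ups and leaving out each library. Some list members enter the sums and counts but are not reported here by name.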

Additional observations from a re-analysis of the deposited data

Results flagged for a closer look

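Dixon's ratio, the gap of the highest or lowest library to its nearest neighbour over the whole range, was computed for 82 reported quantities, with a limit of 0.71 for 5 samples. Chance passes about 1 in 20 such groups. Outside the 10 genes picked for a large CV, 4 of 72 passed. Control 4 was lowest for the summed level of the Hox list (0.795) and of the skeletal muscle list (0.72). Control 5 was highest for the level of Atp5b (0.75) and lowest for mt-Rnr2 in CPM (0.728). The summed levels of the hypoxia and glycolysis list (0.608, Control 4 highest) and of the interferon-stimulated list (0.668, Control 5 highest) did not pass. The cholesterol synthesis sum had the same ratio as the latter (0.668, Control 5 highest).

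Of the 10 genes with the largest CV 9 passed, which their choice by spread favours. Control 4 was the highest library for Reep1 (0.924), Bhlhe40 (0.922), Ndrg1 (0.901), Egln3 (0.837), Ffar4 (0.835), Itga11 (0.802), Fndc1 (0.788) and Ak4 (0.78). Control 5 was the highest for Ifi44 (0.728).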

How the results depend on the processing

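No paired analysis was possible because no groups were compared. Counts of detected genes (12335 to 13542) and of genes at 0 (31683 to 35995) stayed within 1.5 times their main values under every alternative run. Without mitochondrial genes the 10 leading genes took 11.5% of counts. The share of the 20 highest levels was 12.7% by longest transcript, 12.5% without mitochondrial counts and 12.7% by principal coding transcript. The adipocyte sum was 73553 TPM by longest transcript, 103138 CPM without length, 28620.2 TPM for defining markers alone, 104035 TPM by principal coding transcript and 49644 TPM without Scd1. The progenitor sum was 1500.1 TPM for defining markers (mostly Ly6a), 9442 TPM by principal coding transcript and 2712 TPM without Gsn. The macrophage sum was 3547 TPM by longest transcript, 1988 CPM without length, 326 TPM for defining markers, 3077 TPM by principal coding transcript and 1583 TPM without Lyz2. Median CV was 8.61% from a mean of 1 CPM and 4.98% without Controls 4 and 5. Leaving out 1 library gave adipocyte sums of 80817 to 83305 TPM, progenitor sums of 10608 to 11337 TPM, macrophage sums of 4055 to 4528 TPM, shares of 12.3% to 12.98% for the 10 leading genes and 11.9% to 12.2% for the 20 highest levels, median CVs of 5.29% to 7.31%, biological coefficients of variation of 7.06% to 10.6% (lowest in both without Control 4) and 40.7% to 59.3% of variance on the first component. The coding-transcript lengths, the sums without a leading gene and the joint leave-out were chosen after seeing the data. Of 173 list sums under other settings 107 moved by more than 1 SD. Depth limits genes near the detection limit of 1 CPM.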
